A study of Mus musculus with 12 samples.

Results

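Among 12 hippocampal RNA-seq libraries, 4 carried *Ttr* (transthyretin, the main secreted protein of the choroid plexus) at 100 CPM or more, where CPM is the read count of a gene relative to the depth of its library, scaled with TMM. They were KO-Nut3 RH6, RH8 and RH13 and WT-Nut3 RH9, and the other 8 libraries formed the low set. The libraries were selected on this measured value, so the values across the sets are a description without a test. Apart from its values at the threshold, *Ttr* is left out of the results below, though it stayed among the genes fitted. The value just inside the threshold was 313.5 CPM in RH8, and the value just outside was 18.17 CPM in WT-Nut3 RH14.

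The libraries came from 12 mice in 4 groups of 3, named by genotype and injection (WT-Veh, KO-Veh, WT-Nut3, KO-Nut3), with RH and a number naming the animal. WT mice were wild type, KO mice carried the *Fmr1* knockout that serves as a model of fragile X syndrome, and all were on a C57BL/6 background. At 2 months of age they were injected with vehicle (Veh) or with Nutlin-3 (Nut3), an inhibitor of the interaction between MDM2 and p53, and the hippocampus was taken at 6 months. The high set thus held all 3 KO-Nut3 mice and 1 of 3 WT-Nut3 mice, and the low set held all 6 vehicle mice and WT-Nut3 RH1 and RH14. Because no KO-Nut3 library was low, the set and the treatment cannot be told apart within the knockout.

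The choroid plexus is a fold of vascularized stroma covered by a single layer of epithelial cells that projects into the brain ventricles. Its epithelium secretes cerebrospinal fluid by moving ions and water with polarized transporters, and it releases growth factors and carrier proteins into that fluid. In the mouse it lies along the fimbria, directly beside the hippocampus. Whether adjoining choroid plexus was taken with the tissue, in the same way for each mouse, is not given in the sources used here, and its part in the values was not tested. In whole tissue, fewer cells of a type and less RNA per cell cannot be told apart.

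*Fmr1*, which encodes the fragile X protein, was at 73.97 to 79.48 CPM in the 6 WT libraries and at 28.47 to 37.31 CPM in the 6 KO libraries, and these did not overlap, so no genotype label was contradicted. Markers of the labelled tissue were present in all 12 libraries. The summed level of 8 CA pyramidal neuron genes was 542.6 CPM in RH6 and 716.7 to 843 CPM in the other 11 libraries, and that of 8 dentate granule neuron genes was 412.6 to 636.6 CPM. Reads on genes ranged from 17150820 to 20040482 per library. The high and low sets overlapped in reads on genes, in the share of multimapped reads (3.09 to 3.39% and 3.07 to 3.55%) and in the share of mitochondrial reads (3.22 to 3.55% and 3.33 to 3.92%). A higher multimapped share marked the libraries numbered from RH9, and each number range held 2 high libraries.

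Of 22591 genes described, 145 lay in every high library above every low library with at least a 2-fold higher mean, which is 0.642% of genes. In the other direction 8 genes met the same rule (0.0354%), all with a mean under 1 CPM in the low set. Without the fold minimum 350 genes lay wholly above (1.55%) and 107 wholly below (0.474%). The 145 genes became 302 without RH8 and 272 with the *Ttr* threshold at 1000 CPM, and the 8 genes became 20 to 28 with any 1 high library left out. The median log2 ratio was 0.002 over all genes and 2.07 over the 145 higher genes. These 145 genes summed to 3799 CPM in RH6, 1138 CPM in RH8, 4215 CPM in RH9 and 4485 CPM in RH13. In the low set they summed to 552.8 to 708.3 CPM, with WT-Veh RH5 the highest.

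**Figure D1:**
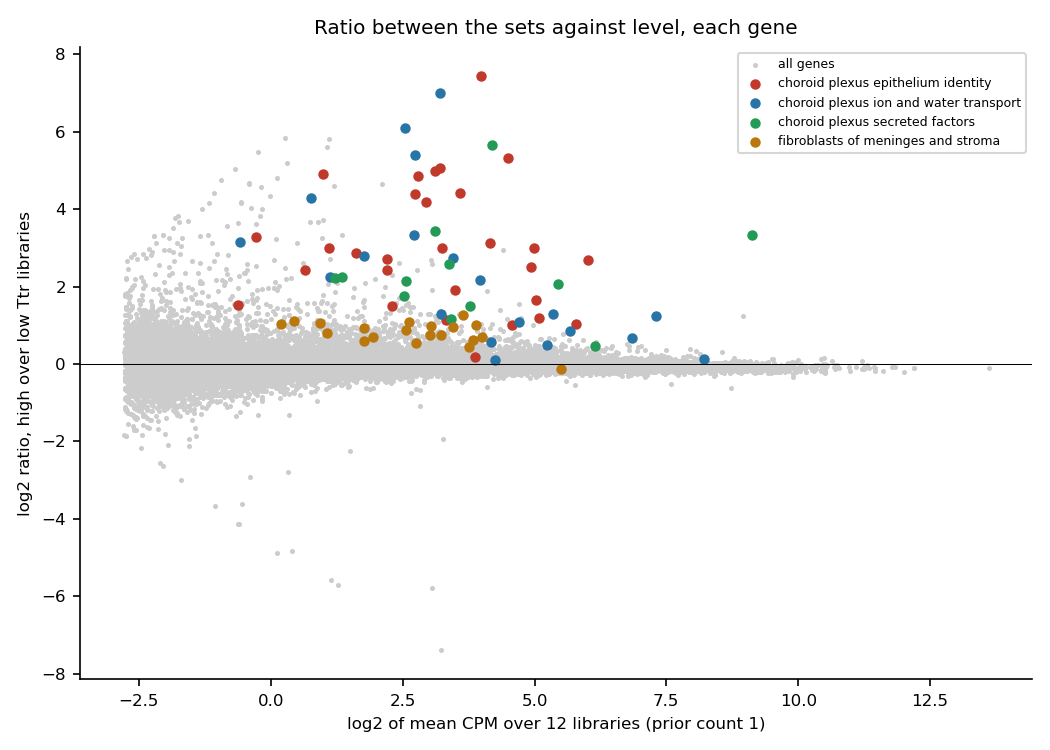
Each gene's log2 ratio of the mean of the 4 high libraries to that of the 8 low libraries (y) against the log2 of its mean CPM over the 12 libraries (x), with 4 gene lists colored. Genes of the 3 choroid plexus lists reach log2 ratios up to 7.45 (with a prior count of 1), while the fibroblast genes lie between -0.14 and 1.28.

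Choroid plexus genes were read through 3 lists, which hold 61 measured genes. Of these 40 were among the 145 higher genes, 1 further higher gene was in the ependyma list, and 104 were in no list. The epithelium identity list had 19 of 29 genes higher, at a median log2 ratio of 2.87. The ion and water transport list had 12 of 20 genes higher (median 1.73) and the secreted factor list 9 of 12 (median 2.19). Over all genes 0.642% were higher. No member of the 3 lists was lower by the same rule, which is near the 0.0354% of all genes and no result about the lists. The 61 genes took 0.441% of reads on genes in RH6, 0.161% in RH8, 0.471% in RH9 and 0.492% in RH13, against 0.102 to 0.123% in the low libraries. Of their 1049 to 1230 CPM in the low libraries, 656.6 to 709.1 CPM fell to the transport list. That list holds *Slc4a10*, which neurons also express, so the low share is no measure of choroid plexus content.

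**Figure D2:**
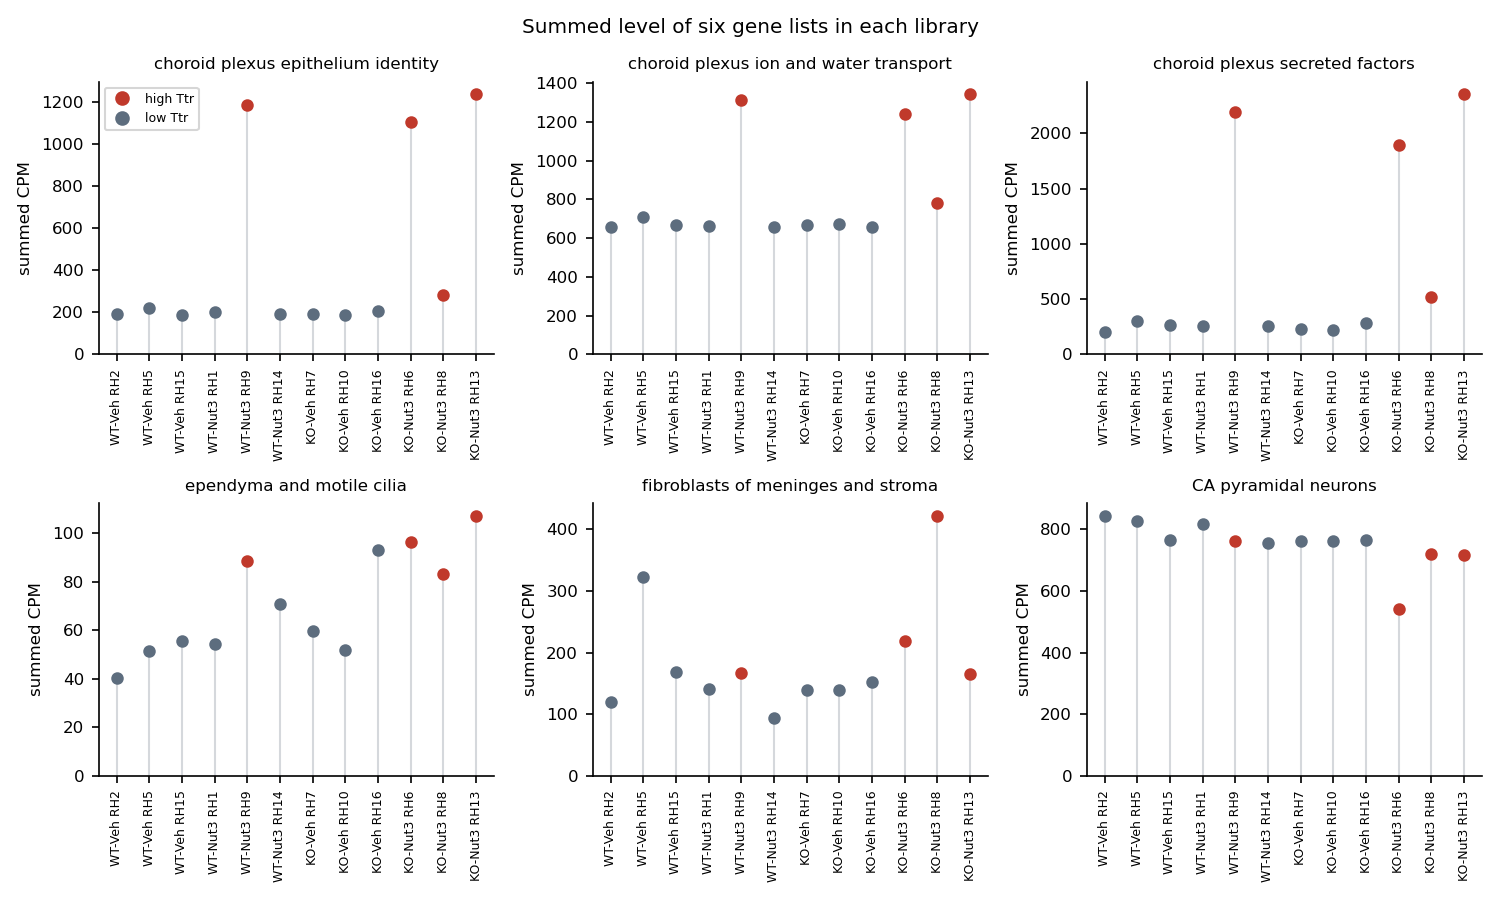
Summed CPM (y) of 6 gene lists in each of the 12 libraries (x), with high *Ttr* libraries in red and low ones in gray. The identity list is at 1105 to 1236 CPM in RH6, RH9 and RH13 and at 283.7 CPM in RH8, above all low libraries, while the fibroblast list is highest in RH8 and then in WT-Veh RH5.

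The study designed qPCR primers for several of these genes. Those of *Aqp1*, *Tmem72*, *Igf2* and *Angptl2* are shown because the first pair of genes was far lower in RH8 than in the other high libraries and the second pair was not. In the GRCm38 annotation the primers lie in exons, *Aqp1* at chr6:55336589-55336609 and chr6:55336668-55336687 (plus strand) and *Tmem72* at chr6:116695259-116695281 and chr6:116695181-116695202 (minus strand). The *Igf2* primers lie at chr7:142655733-142655751 and chr7:142654325-142654343 (minus strand). The *Angptl2* forward primer lies at chr2:33242266-33242285 (plus strand), and its reverse primer crosses an exon junction between chr2:33242378 and chr2:33243684.
Aqp1 forward: aggcttcaattacccactgga
Aqp1 reverse: ctttgggccagagtagcgat
Tmem72 forward: cagacccaagataccctaatgga
Tmem72 reverse: gggatgattctgaccacattgt
Igf2 forward: gtgctgcatcgctgcttac
Igf2 reverse: acgtccctctcggacttgg
Angptl2 forward: agcctgagaataccaaccgc
Angptl2 reverse: cccttgcttataggtctcccag

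Among transporters, the widest gap between the sets was that of *Slc4a5*, a sodium bicarbonate cotransporter of the apical membrane (chr6:83219828-83304945, plus strand). It was at 30.11 CPM in RH6, 3.44 in RH8, 37.36 in RH9 and 37.62 in RH13, and at 0.0525 to 0.285 CPM in the low libraries (median 0.111). Every high library was far above every low one, and RH8 stood apart below the other 3. The means were 27.1 ± 16.2 CPM (SD, n = 4) and 0.159 ± 0.0906 (SD, n = 8).

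*Kcne2*, a potassium channel subunit of the same membrane (chr16:92292389-92298129, plus strand), was at 19.47, 3.04, 23.1 and 22.35 CPM in RH6, RH8, RH9 and RH13 and at 0.0507 to 0.361 CPM in the low libraries. The water channel gene *Aqp1* (chr6:55336432-55348555, plus strand) was at 23.13, 1.83, 27.87 and 23.45 CPM in the same order and at 0.169 to 0.671 CPM in the low libraries. Both genes showed the pattern of *Slc4a5*, with no overlap and with RH8 the lowest of the high libraries. The inward rectifier *Kcnj13* (log2 ratio 4.30) and the calcium-permeable channel *Trpv4* (3.33) also did not overlap. *Slc12a2*, the sodium potassium chloride cotransporter, differed less, at 154.5 ± 22.5 CPM (SD, n = 4) against 96.5 ± 10.2 CPM (SD, n = 8), and it stayed under the 2-fold minimum.

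*Slc4a10*, a bicarbonate transporter that neurons also express and the list member with the highest CPM, was at 316.7 CPM in the high and 288.7 CPM in the low set, and the sets overlapped. *Trpm3*, a cation channel whose gene houses *Mir204*, was at 295.7, 129, 296.6 and 306.3 CPM in RH6, RH8, RH9 and RH13 against 101.7 to 116.4 CPM. *Slc4a2*, the basolateral anion exchanger, was at 79.42, 33.05, 75.06 and 81.66 CPM in the same order against 24.43 to 31.22 CPM. For both genes RH8 was just above the low libraries and the other 3 were more than 2-fold above them.

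In the identity list, *Tmem72*, a membrane protein gene (chr6:116679063-116716913, minus strand), was at 53.3, 4.18, 62.49 and 67.49 CPM in RH6, RH8, RH9 and RH13. It was at 0.113 to 0.393 CPM in the low libraries. *Clic6*, a chloride channel family gene, was at 75.81, 6.82, 87.83 and 88.53 CPM against 0.578 to 3.87 CPM. *Folr1*, the folate receptor that carries folate into the cerebrospinal fluid, was at 26.01, 3.49, 32.29 and 35.64 CPM against 0.179 to 1.23 CPM. None of the 3 genes overlapped between the sets.

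*Kl* (klotho, the co-receptor of FGF23), the identity gene with the highest CPM, was at 153.5, 34.08, 189.4 and 216.4 CPM in RH6, RH8, RH9 and RH13 against 17.56 to 26.87 CPM. *Otx2*, the homeobox factor that specifies the choroid plexus, was at 27.95, 3.04, 22.35 and 19.22 CPM against 0.158 to 2.45 CPM. The antisense gene *Otx2os1* overlaps *Otx2*, and reads on any exon stretch they share cannot be assigned to either gene in the unstranded counts. *Cldn2*, a pore-forming tight junction gene of leaky epithelia, had a log2 ratio of 4.86 and *Mfrp*, a membrane frizzled-related gene, 5.08. The 10 identity genes that were not higher by the rule overlapped in RH8 with a low library, and they included *Krt8*, *Krt18*, *Cldn1*, *Lmx1a*, *Prlr* and *Htr2c*.

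*Htr2c*, the serotonin receptor through which choroid epithelium is classically studied, is also expressed by neurons. It was at 104.8 CPM in RH6, 46.97 in RH8, 88.08 in RH9 and 94.18 in RH13, against 35.79 to 48.12 CPM. RH8 was inside the low range and the other 3 were above it.

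**Figure D3:**
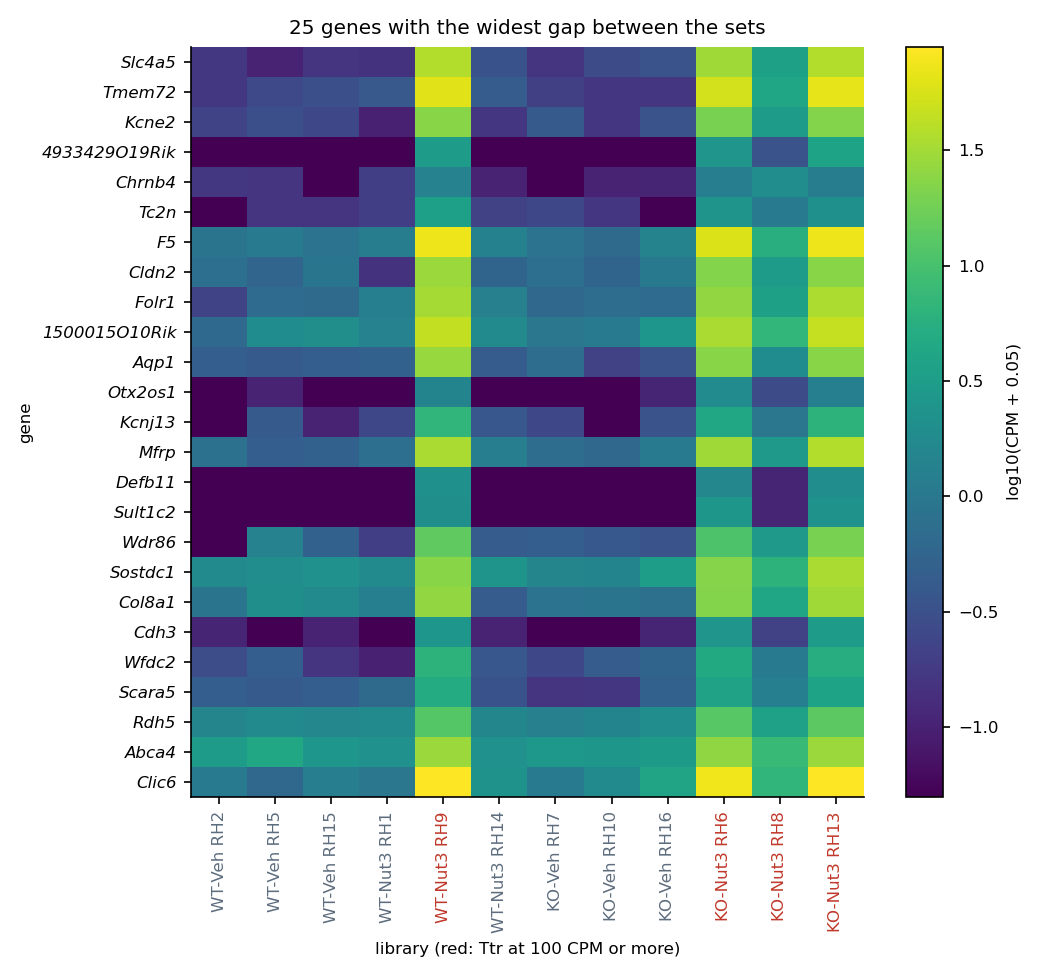
Level (log10 of CPM + 0.05, color) of the 25 genes with the widest gap between the lowest high and the highest low library, among genes with a mean of at least 1 CPM in the high set, in each of the 12 libraries. RH6, RH9 and RH13 are alike, RH8 is intermediate for most genes, and *Chrnb4*, at 1.89 CPM in RH8, is an exception.

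Among secreted factors, *Enpp2* (autotaxin, which makes lysophosphatidic acid; chr15:54838901-54952892, minus strand) had the highest level per kilobase of exon among the 145 higher genes. It was at 1532 CPM in RH6, 277.6 in RH8, 1820 in RH9 and 1945 in RH13, and at 112.9 to 163.7 CPM in the low libraries. Per kilobase its level was 241 CPM in the high set and 24.0 CPM in the low set, against 47.8 and 11.3 CPM for *Igfbp2* and 36.6 and 1.66 CPM for *1500015O10Rik*, the next in order. *Igfbp2* encodes an insulin-like growth factor binding protein, and *1500015O10Rik* the peptide precursor also called Ecrg4. Coagulation factor *F5* was at 60.51, 5.61, 72.48 and 72.87 CPM in RH6, RH8, RH9 and RH13 against 0.620 to 1.37 CPM.

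*Igf2*, the growth factor of choroid and meningeal cells, followed another order. It was at 5.44 CPM in RH6, 5.84 in RH8, 3.83 in RH9 and 4.28 in RH13, against 0.280 to 1.03 CPM in 7 low libraries and 3.26 CPM in WT-Veh RH5. *Bmp6*, a BMP ligand, was at 24.35, 26.29, 21.41 and 23.94 CPM in the same order, with 18.33 CPM in RH5 and 5.19 to 8.67 CPM in the other low libraries. For both genes RH8 was the highest library of all and RH5 was the low library nearest to the high set. The annotation places *Igf2os* opposite *Igf2* and *Gm26684* opposite *Enpp2*. Overlap was taken by whole gene, and reads on any exon stretch shared by a pair cannot be assigned to either gene.

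Further genes among the 25 with the widest gap are given next. *Defb11* (a beta-defensin), *Sult1c2* (a sulfotransferase) and *4933429O19Rik* (a noncoding transcript near *Otx2os1*) had 0 counts in all 8 low libraries. With the limit of 3 counts per library as the floor, they were at least 7.84-fold, 9.63-fold and 13.3-fold higher. In RH8 *Defb11* and *Sult1c2* were at 0.0573 CPM, under that floor, so their place above the low set rests on RH6, RH9 and RH13. *Cdh3*, the P-cadherin gene, was at most at 0.0597 CPM in the low libraries and at least 11.4-fold higher. *Col8a1*, a short-chain collagen, had a log2 ratio of 4.20, and *Sostdc1*, a secreted BMP and Wnt antagonist, 3.43. *Rdh5* and *Abca4*, enzyme and transporter of the retinoid cycle, were at 10.5 and 22.7 CPM in the high set against 1.55 and 2.80 CPM.

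By gene family, 8 of 335 solute carriers (2.39%), 4 of 43 collagens (*Col4a4*, *Col9a3*, *Col8a1*, *Col8a2*), 2 of 15 claudins (*Cldn2*, *Cldn9*), 2 of 86 potassium channel genes (*Kcnj13*, *Kcne2*) and 0 of 22 keratins were among the higher genes, beside 0.642% of all genes. So were 1 of 15 axonemal dyneins, 1 of 6 IGF binding proteins (*Igfbp2*), 1 of 8 BMPs (*Bmp6*) and 0 of 3 MHC class II genes. The families were picked after the values were seen.

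Promoter windows of 250 bases before to 50 after a start were taken from RefSeq (GRCm38.p6) and searched on both strands for TAATCC, the core bound by OTX2 and related homeodomain factors. A match is a description of letters and not a site. It was found in 2320 of 32851 windows (7.06%), in 14 of 136 windows of the 96 higher genes with an entry (10.3%), and in 6 of 42 windows of the 30 higher choroid list genes with one (14.3%). The 6 genes were *Abca4*, *Ace*, *Car14*, *Igf2*, *Mfrp* and *Otx2*. Some of the 25 genes with the widest gap, such as *Folr1*, had no entry and were not searched. Among those with an entry, the windows of *Mfrp* (chr9:44101520-44101819, plus strand) and *Abca4* (chr3:122044210-122044509, plus strand) hold the match and are shown with it in capitals. That of *Slc4a5* (chr6:83237125-83237424, plus strand) is shown as the gene of the widest gap, and it holds none.
Mfrp: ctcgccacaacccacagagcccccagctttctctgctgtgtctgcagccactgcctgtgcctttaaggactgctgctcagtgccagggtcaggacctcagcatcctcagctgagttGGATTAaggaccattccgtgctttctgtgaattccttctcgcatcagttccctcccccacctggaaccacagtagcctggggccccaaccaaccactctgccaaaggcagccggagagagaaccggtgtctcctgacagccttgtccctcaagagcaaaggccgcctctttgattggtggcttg
Abca4: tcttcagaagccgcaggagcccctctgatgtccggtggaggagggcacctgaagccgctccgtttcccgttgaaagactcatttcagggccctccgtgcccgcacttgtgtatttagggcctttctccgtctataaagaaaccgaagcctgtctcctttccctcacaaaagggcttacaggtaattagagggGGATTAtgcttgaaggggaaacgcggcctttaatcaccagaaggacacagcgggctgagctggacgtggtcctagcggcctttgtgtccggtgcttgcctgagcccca
Slc4a5: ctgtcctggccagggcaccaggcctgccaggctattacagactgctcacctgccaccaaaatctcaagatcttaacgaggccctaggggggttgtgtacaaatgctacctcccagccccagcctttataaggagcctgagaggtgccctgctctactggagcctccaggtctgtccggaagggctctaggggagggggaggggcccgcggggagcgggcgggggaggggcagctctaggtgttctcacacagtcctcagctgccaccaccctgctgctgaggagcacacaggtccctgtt

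The 8 genes at least 2-fold lower in the high set had means of 0.142 to 0.771 CPM in the low set. The 10 genes with the widest gap downward and a mean of at least 1 CPM had log2 ratios from -0.78 to -0.16. *Elavl1*, an RNA-binding protein gene, was at 74.32 to 79.74 CPM in the high and 83.19 to 87.29 CPM in the low libraries. *Rasl10b*, a small GTPase gene, was at 245.2 to 277.7 CPM against 287.9 to 323.4 CPM. *Tmem151b* was at 117.1 to 127.6 CPM against 133.8 to 163.2 CPM. The sets did not overlap for the 3 genes, and their log2 ratios were -0.16, -0.16 and -0.20.

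RH8 was compared with the other high libraries gene by gene, as its level above the low mean in percent of that of RH6, RH9 and RH13. Over the 112 higher genes with a mean of at least 1 CPM in the high set, the median was 19.8% (quartiles 11.02 and 48.4%), and it was 42.0% where the low mean was not subtracted. RH8 stood under 20% for 57 genes, from 20 to 50% for 27, from 50 to 100% for 20 and over 100% for 8.

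By role, and among the members already required to lie above every low library, the shares differed, without a test. In the identity list 15 of 19 genes were under 20% (median 10.02%), as were 10 of 12 transport genes (median 11.1%), whereas 3 of 9 secreted factors were (median 27.4%), and the 71 genes in no list had a median of 29.8%. For the summed CPM of all list members the order was another, at 8.87% for identity, 14.3% for secreted factors and 17.8% for transport. *Tmem72* was at 6.52%, *Aqp1* at 5.88%, *Slc4a5* at 9.40% and *Enpp2* at 8.54%. *Igf2* was at 138%, *Slc13a4*, a sulfate transporter, at 128%, *Bmp6* at 121%, *Dab2*, an endocytic adaptor, at 86.8% and *Angptl2*, a secreted angiopoietin-like protein, at 72.3%.

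**Figure D4:**
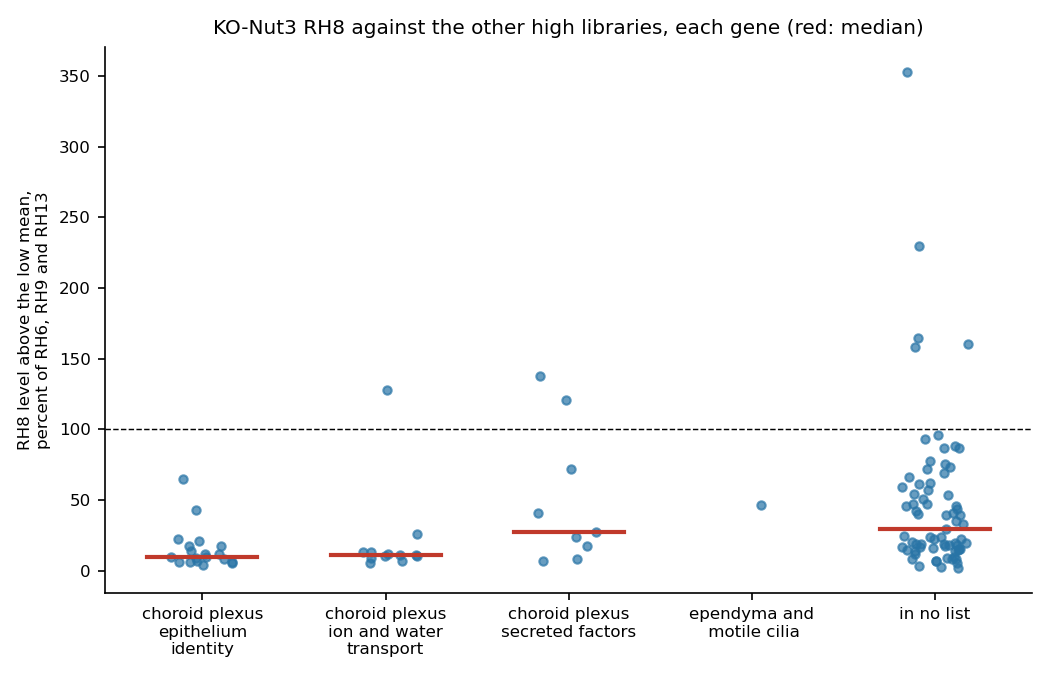
Level of RH8 above the low mean in percent of the mean of RH6, RH9 and RH13 (y), for each of the 112 higher genes by list (x), with the median as a red bar and 100% dashed. Identity and transport genes cluster near 10%, with *Slc13a4* at 128%, and the secreted factors spread from 6.84 to 138%.

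The 28 genes at 50% or more in RH8 were also looked at in the low set. WT-Veh RH5 was the highest low library for 18 of these 28 genes and for 12 of the 57 genes under 20%. The median of RH5 over the mean of the other low libraries was 1.63 for the 28 genes and 1.01 for the 57. The share over all genes and that of the genes from 20 to 50% were not counted, so both counts are a description only. Over the 28 genes RH5 was at 0.48 (*Gnb3*) to 5.44 times (*Slc13a4*) the mean of the other low libraries. *Slc13a4* was at 25.06 CPM in RH5 and at 2.41 to 7.28 CPM in the other low libraries, against 36.66, 37.35, 26.08 and 29.44 CPM in RH6, RH8, RH9 and RH13. *Angptl2* was at 5.83 CPM in RH5 and at 1.79 to 3.10 CPM in the other low libraries. Fibroblast markers were high in RH8 and RH5 as well, but not in RH9 and RH13. The 20 genes of that list summed to 421.7 CPM in RH8 and 322.2 CPM in RH5, then to 219.6 CPM in RH6, 166.8 CPM in RH9 and 165 CPM in RH13, and to 94.6 to 168.9 CPM in the other low libraries.

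*Dcn* (decorin), the gene of that list with the highest CPM, did not follow the order. It was at 56.54 CPM in RH8 and 20.35 in RH6, and at 28.37 to 58.26 CPM in the low libraries, with RH5 the highest. *Fmod*, a small leucine-rich proteoglycan of arachnoid cells, was at 48.23 CPM in RH8 and 29.89 in RH5, against 20.63 in RH6, 8.59 in RH9 and 4.56 in RH13. *Aldh1a2*, the retinoic acid synthesis gene of meninges, was at 21.65 CPM in RH8, 14.92 in RH5 and 10.09 in RH6, and at 1.40 to 4.06 CPM elsewhere. Of the 20 genes 0 separated the sets, where 1.55% of all genes lay wholly above, so the count says nothing about the list. The median log2 ratio of the list was 0.84 over the 4 high libraries, 1.79 for RH8 alone and 0.01 for RH13, and it was -0.09 with the *Ttr* threshold at 1000 CPM, which moves RH8 to the low set. Their part in the levels of the other genes was not tested.

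**Figure D5:**
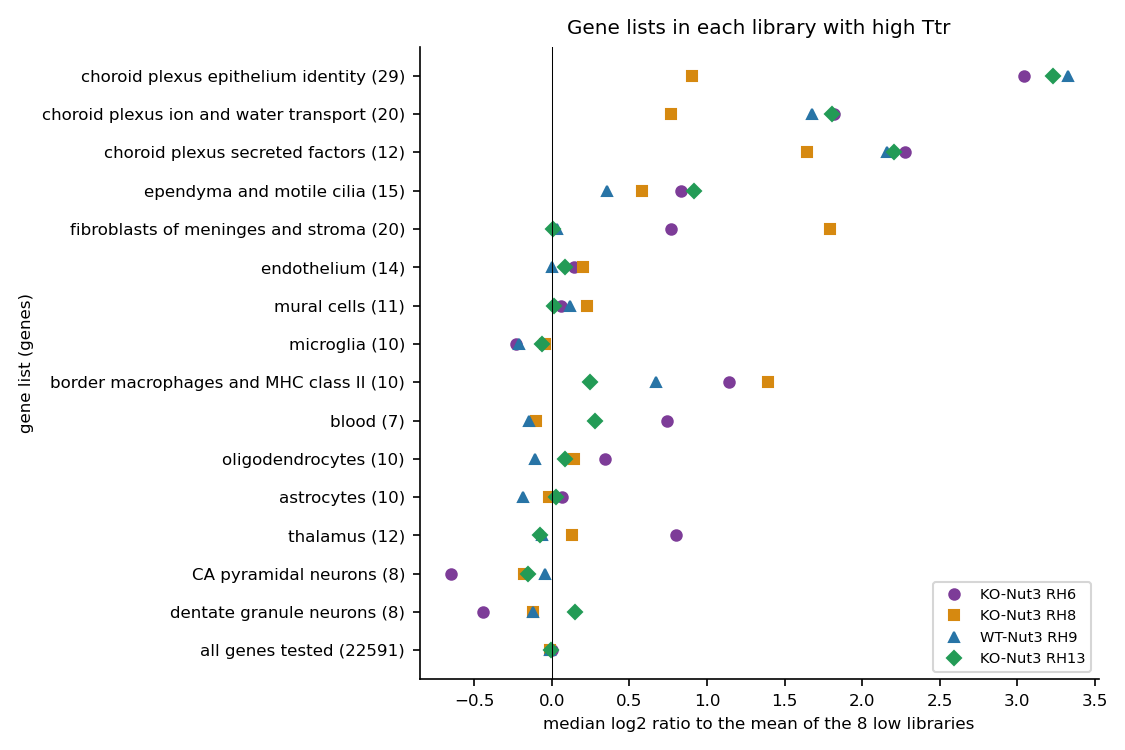
Median log2 ratio (x) of each gene list (y, number of genes in parentheses) in each high library over the mean of the 8 low libraries. RH6, RH9 and RH13 lie together at 3.05 to 3.33 for the identity list with RH8 at 0.90, whereas for the fibroblast list RH8 is at 1.79 and RH9 and RH13 are near 0.

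Other cell types were read through the same kind of lists. Ependymal genes, which serve the ciliated cells lining the ventricles, summed to 83.29 to 107.2 CPM in the high and 40.49 to 93.09 CPM in the low libraries. Only KO-Veh RH16 of the low libraries reached the high range. Of 15 measured genes *Dnah11*, an axonemal dynein, was higher by the rule, beside 0.642% of all genes, and the median log2 ratio was 0.73. *Foxj1*, the master factor of motile cilia, was at 26.84, 18.62, 23.7 and 24.77 CPM in RH6, RH8, RH9 and RH13, against 8.24 to 15.25 CPM in 7 low libraries and 20.68 CPM in RH16. *Mia*, with 7 counts in all, was not tested.

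Border macrophage and MHC class II genes summed to 33.77, 33.17, 23.55 and 21.8 CPM in RH6, RH8, RH9 and RH13, to 27.63 CPM in RH5 and to 6.84 to 16.38 CPM in the other low libraries. *Cd74*, the MHC class II chaperone, was at 8.71, 5.10, 4.52 and 5.27 CPM in the high libraries in that order and at 5.15 CPM in RH5, and *Mrc1*, the mannose receptor and the gene of the list with the highest CPM, was at 6.60, 7.45, 3.58 and 3.13 CPM and at 5.20 CPM in RH5. The sets overlapped for both genes. Endothelium, mural cells, microglia, blood, oligodendrocytes, astrocytes, thalamus, CA pyramidal and dentate granule neurons had 0 genes higher and 0 lower by the rule, which in lists of 7 to 14 genes is near the 0.642% and 0.0354% of all genes and no result about these cell types. Their median log2 ratios were from -0.25 (CA pyramidal neurons) to 0.31 (blood), beside 0.002 over all genes. RH6 had the highest sum in several lists, with 373.3 CPM for thalamus against 165.7 to 242 CPM elsewhere and 88.73 CPM for blood against 42.23 to 69.2 CPM. It was also the highest for oligodendrocytes, at 6557 CPM against 3841 to 6329 CPM, and had the lowest sums of CA pyramidal and dentate granule genes. *Tcf7l2*, a transcription factor of thalamic neurons, was at 32.72 CPM in RH6 and at 4.75 to 7.33 CPM in the other libraries.

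The labelled groups allow tests on all genes with edgeR, and a gene was called where its *P*-value, adjusted by Benjamini-Hochberg, was under 0.05. KO-Nut3 against KO-Veh asks what the treatment left behind in the knockout. Here 43 genes were upregulated (0.19% of genes) and 1 was downregulated (0.00443%), while 1715 genes had *P* under 0.05 before adjustment. A fit of all 12 libraries called 0 of these 44 genes, and a fit with the animal number range as a term called 19 of them, while DESeq2 called 238 genes up and 6 down. The comparison sets all high KO libraries against all low ones, so it is not independent of the *Ttr* rule and nothing about the sets is read from it. It called 7 of 29 identity, 3 of 20 transport and 6 of 12 secreted factor genes, and no gene of the ependyma or fibroblast lists. The median log2 fold changes were 2.70, 1.54 and 2.31 for the 3 choroid plexus lists, 1.37 for the fibroblast list (19 of 20 genes positive), 1.21 for the macrophage list (10 of 10) and 0.61 for the ependyma list (12 of 15), against 0.003 over all genes, and the part of these other cell types in the calls was not tested. In the macrophage list *Cd74*, *H2-Aa*, *H2-Ab1* and *H2-Eb1*, which encode the MHC class II chains and their chaperone, were called.

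*Bmp6* rose from 6.52 ± 1.24 to 24.9 ± 1.26 CPM (SD, n = 3 each; log2 fold change 1.93, SE 0.142, edgeR adjusted *P*-value 0.0013). *Slc13a4* rose from 5.11 ± 1.89 to 34.5 ± 4.38 CPM (log2 fold change 2.74, SE 0.213, adjusted *P*-value 0.00144). In both genes RH8 was level with RH6 and RH13. The *P*-values of this paragraph belong to the labelled groups, which coincide with the sets in the knockout. They are no support for the sets. *Slc4a5* rose from 0.205 ± 0.0926 to 23.7 ± 17.96 CPM (log2 fold change 6.83, SE 0.991, adjusted *P*-value 0.034), and *Tmem72* had an adjusted *P*-value of 0.0386. *Aqp1* (log2 fold change 5.37, SE 0.936, adjusted *P*-value 0.0666), *Clic6* (0.079) and *Enpp2* (0.0606) missed the threshold. With RH8 left out of the fit 255 genes were upregulated, and with any 1 of the 3 KO-Veh libraries left out 5 or 6 were.

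WT-Nut3 against WT-Veh asks the same in wild type mice, and only RH9 of its 6 libraries was high. No gene was called in either direction (0% of genes up and 0% down), with 716 genes under 0.05 before adjustment. DESeq2 also called 0 genes, with 340 under 0.05 before adjustment, but with the animal number range as a term edgeR called 11 genes down, and with every gene of at least 1 count kept it called 171 up and 77 down. *Tmem72* had a log2 fold change of 6.69 (SE 1.93) and an adjusted *P*-value of 0.998, from 62.49 CPM in RH9 against 0.355 and 0.393 CPM in RH1 and RH14.

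RH9 was therefore set against RH1 and RH14 of its own group, without a test. Of all genes 4.28% lay above both and at least 2-fold above their mean in RH9, and of the 43 genes called up in the knockout 36 did. All 43 lay above both, as did 33.1% of all genes. Their median log2 ratio in RH9 was 2.22, against -0.004 over all genes. The 7 genes under 2-fold were *Tns1*, *Col4a5*, *Vcam1*, *Hspg2*, *Sod3*, *Bcam* and *Cpq*. RH9 was picked by its *Ttr* level, and the comparison in the knockout shares that rule.

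Of the identity list 28 of 29 genes lay above both RH1 and RH14 and at least 2-fold above their mean in RH9. By the same rule it was 15 of 20 for the transport list, 11 of 12 for the secreted factors and 7 of 10 for the border macrophage and MHC class II list. For the ependyma list it was 2 of 15 and for the fibroblast list 2 of 20, beside 4.28% of all genes. The last 2 counts are of 2 genes each, which is too few to be a result about those lists. The border macrophage count depends on the choice of RH1 and RH14. The median log2 ratio of that list in RH9 was 1.51 over them and 0.67 over all 8 low libraries. WT-Veh RH5 had a higher sum (27.63 CPM) than RH9 (23.55 CPM). The median log2 ratio of the identity list over the low set was 3.33 in RH9, 3.05 in RH6 and 3.23 in RH13.

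KO-Veh against WT-Veh holds low libraries alone and asks whether genotype moved these genes. It called 1 gene up (0.00443% of genes) and 3 down (0.0133%), with 1627 under 0.05 before adjustment. *Gm21887*, also known as *Erdr1*, rose (log2 fold change 6.93, SE 0.38, adjusted *P*-value 1.52e-06), and *Fmr1* (-1.18, SE 0.0691, 1.76e-06), *Col5a1* (-0.997, 0.0147) and *Wfs1* (-0.44, 0.0478) fell. In a fit of all 12 libraries *Fmr1* alone of these 4 genes was called. Of the 61 genes of the 3 choroid plexus lists 0 were called, which is near the share over all genes and no result about the lists. The median log2 fold changes were 0.02, 0.08 and -0.29 for the identity, transport and secreted factor lists, -0.78 for the fibroblast list (1 of 20 genes positive), -0.75 for the macrophage list (0 of 10) and 0.52 for the ependyma list (15 of 15). Whether single libraries carried these medians was not tested. The fibroblast sums were 322.2 CPM in WT-Veh RH5, 120.4 and 168.9 CPM in the other WT-Veh and 139.1 to 152.1 CPM in the KO-Veh libraries, and the ependyma sums were 93.09 CPM in KO-Veh RH16, 59.72 and 52.04 CPM in the other KO-Veh and 40.49 to 55.52 CPM in the WT-Veh libraries. *Gm21887* was also the gene downregulated in KO-Nut3, and it did not follow the sets, being at 28.91 CPM in RH9 and at most 0.333 CPM in RH6, RH8 and RH13. KO-Veh libraries serve in 2 of the 3 comparisons and WT-Veh libraries in 2.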

How the data were processed

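Messenger RNA libraries of hippocampus from 12 mice were used as the read counts per gene that the authors deposited, made by mapping to mm10 with STAR (version not given in the sources used here), unstranded and not normalized. The sequencing is labelled single-read, while the methods describe paired-end reads. A table of the whole series (12 columns of values) was not used.

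Genes with more than 20 counts in total were kept, 22592 in all, and scaled with TMM in edgeR 4.0.16 (R 4.3.3). Ratios used a prior count of 1. The sets were described only. Labelled groups were tested on their 6 libraries with the edgeR quasi-likelihood test, two-sided, with DESeq2 1.42.0 as an alternative. Only the edgeR fit was run on simulated counts. These had the same relative spread for every gene, so they do not cover a group with a library such as RH8. The SE is the log2 fold change over the root of *F*. The floor is 3 counts per library, and it covers counting error only.

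The sets, the 15 gene lists (197 genes) and the tests were chosen with earlier results of these data known. Genes named are the 25 and 10 with the widest gaps among those with a mean of at least 1 CPM in the higher set, up to 6 most abundant per list, those with qPCR primers, *Fmr1*, and up to 5 per direction called in each comparison. Genes outside this rule were picked with their values in view. Positions are from GENCODE M21 (GRCm38). Mice are separate animals.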

Additional observations from a re-analysis of the deposited data

Results flagged for a closer look

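In 94 sets of 4 or 8 libraries, made of list sums and of the 25 genes with the widest gap, the qPCR genes and *Fmr1*, a gap test on the outermost library stood out 14 times. Chance gives about 1 in 20 for independent sets, but these share libraries and genes and the genes were chosen by their gap, so the number is no measure of excess. In the high set RH8 was far below the other 3 libraries for the identity list (283.7 CPM), *Rdh5* (3.551 CPM) and *Clic6* (6.817 CPM). RH9, the WT library of that set, was far above the rest for *Fmr1* (73.97 CPM), as its genotype label says, and for *Gm21887* (28.91 CPM).

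In the low set WT-Veh RH5 was the outermost library in 8 of 9 cases. These were the sums of the transport (709.1 CPM), fibroblast (322.2 CPM) and border macrophage (27.63 CPM) lists, and *Wdr86* (1.313 CPM), *Abca4* (4.413 CPM), *Angptl2* (5.831 CPM), *Bmp6* (18.33 CPM) and *Igf2* (3.257 CPM). KO-Veh RH16 was far above the others for the thalamus list (242 CPM). Causes were not tested.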

How the results depend on the processing

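The 145 genes higher in every high library became 272 with the *Ttr* threshold at 1000 CPM, 75 with a 4-fold and 350 with no fold minimum, 546 within animal numbers up to RH8 and 547 from RH9, and 150 to 302 with 1 library left out, most without RH8. The 8 lower genes became 2 with filterByExpr, 0 with a prior count of 5, 23 at 1000 CPM, 0 with a 4-fold and 107 with no fold minimum, 290 and 252 within the number ranges, and 7 to 28 with 1 library left out (20 without RH9, 15 without KO-Veh RH10, 25 without RH6, 27 without RH8, 28 without RH13). The median log2 ratio of the secreted factor list was 2.57 with medians over libraries, 1.85 at 1000 CPM, 1.90 and 2.61 within the number ranges, and 2.09 to 2.50 with 1 library left out. The identity and transport lists stayed at 2.36 to 3.21 and 1.37 to 1.99 over all settings. The RH8 median was 42.0% with no subtraction of the low libraries and 19.2 to 20.9% with 1 of the other high libraries left out.

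For KO-Nut3 against KO-Veh, DESeq2 called 238 genes up and 6 down, the fit of all genes with a count 513 and 30, the fit of all 12 libraries 0 and 0 (1993 genes at an unadjusted *P*-value under 0.05), and the number range as a term 18 up. Leaving out 1 library gave 5 to 255 up and 1 to 9 down, with 5, 5 and 6 up without KO-Veh RH7, RH10 and RH16 and 2 down without RH13. With RH9 alone left out of the joint fit, an alternative chosen after seeing the data, 104 genes were up and 0 down, and 36 of the 44 called genes were shared. WT-Nut3 against WT-Veh gave 171 up and 77 down with all genes with a count, 11 down with the number range as a term, and 0 to 1 up and 0 down with 1 library left out. KO-Veh against WT-Veh gave 9 up and 13 down with DESeq2, 105 and 167 with all genes with a count, 0 and 1 in the fit of 12 libraries and in that without RH9, 3 and 18 with the number range as a term, and 1 to 7 up and 1 to 4 down with 1 library left out. The causes were not tested. The 38 named genes higher in every high library kept a positive ratio in all 836 values of the settings run. Their selection for no overlap largely fixes that sign, so it is no measure of stability. Of the other 93 named genes 30 changed sign in at least 1 setting, as did the medians of the fibroblast (-0.09 at 1000 CPM), astrocyte, blood and oligodendrocyte lists. No paired analysis was possible because each animal number occurs in 1 group.

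Within the knockout the sets and the treatment cannot be told apart, and in wild type mice the high set is 1 animal. Ratios of genes at a few counts in the low set depend on the prior count.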
